A study of Mus musculus with 6 samples.

Results

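The genes described here are 10 members of the BCL2 family, the proteins that decide whether a cell keeps its mitochondria intact or dies by apoptosis. They were chosen by gene symbol, and all 10 were found among the 55809 gene rows of the count tables. Of them, 6 encode proteins that hold death back (Mcl1, Bcl2l1, Bcl2, Bcl2a1a, Bcl2a1b and Bcl2a1d), 3 encode BH3-only proteins that trigger death (Bcl2l11, Bbc3 and Pmaip1), and 1, Bax, encodes an effector that opens the outer mitochondrial membrane. The libraries came from mast cells sorted from the skin of C57BL6J mouse fetuses at embryonic day 18.5, where the sort kept cells without F4/80 and CD64 that carried CD45, CD117 (KIT) and ST2. In the prenatal stress group (PS) the pregnant dams, 8 to 10 weeks old, were held in narrow tubes with bright light for 30 minutes, 3 times daily, late in gestation; in the control group (CT) the dams were left undisturbed. The stress began at embryonic day 13 per the protocol and at day 13.5 per the design text, and ended at day 18 or 18.5. Each group had 3 libraries, each a pool of 4 fetuses of both sexes, 12 mice per group. The number of litters behind each pool is not stated, and p-values here therefore measure only the spread between pools.

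Proteins of the family meet at the surface of the mitochondrion. MCL1, BCL-XL (the product of Bcl2l1), BCL2 and A1 (the product of the Bcl2a1 genes) bind BAX and the BH3-only proteins and keep them inactive, and cytochrome c is released and caspases are activated when the BH3-only proteins outweigh them. Mast cells are long-lived tissue cells that depend on stem cell factor and its receptor KIT. In them BIM, the product of Bcl2l11, is a known mediator of death after withdrawal of that factor, and A1 is known in mice for its part in survival after activation through the immunoglobulin E receptor.

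The libraries held 51710555 to 57806119 counts assigned to genes in the PS group and 54616570 to 74735139 in the CT group. Levels are in CPM, the gene's count scaled to a common library size with TMM factors, and values are listed for replicates 1, 2 and 3 in that order. All 15 mast cell markers were detected in every library, with summed levels of 89694 to 107934 CPM in PS and 61908 to 74525 CPM in CT. At an adjusted p under 0.05, 9 of them were called higher and 6 were not called, while 4.34% of all genes tested were called higher and 1.85% lower. In 13 of the 15 every PS pool was above every CT pool, and 30.6% of all genes tested had groups without overlap in either direction. All 16 macrophage markers were also detected in every library although the sort removed cells with the macrophage proteins F4/80 and CD64. Of these genes Cd68 was higher, Cx3cr1 was lower and 14 were not called. The log2 fold change of PS over CT was negative for 13 and positive for 3 of them, with a median of -0.26. Their summed level was 5973, 5556 and 8564 CPM in PS and 7255, 8259.8 and 8271 CPM in CT, so PS replicate 3 stood apart from the other PS pools. Summed markers of other cells were far lower. Those of neutrophils were at 60.4 to 93.8 CPM in PS and 57.6 to 152 CPM in CT. Those of innate lymphoid and T cells were at 63.8 to 78.0 CPM in PS and 37.8 to 60.0 CPM in CT. Among the latter Il7r was the highest in every library. It had 48.8 to 58.1 CPM in PS and 18.1 to 26.2 CPM in CT, and was called higher. Those of stroma, keratinocytes and endothelium were at 124 to 248 CPM in PS and 109 to 136 CPM in CT. In pooled RNA, fewer cells of a type and less RNA per cell cannot be told apart.

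Across the 10 genes, most differences between PS and CT mast cells were within the spread between pools. Of the 10 genes, all of which passed the filter on low counts, 1 rose, none fell and 9 were not called at an adjusted p under 0.05, by the quasi-likelihood test of edgeR with adjustment over all genes tested. The gene that rose was Bcl2l1, with a 1.31-fold higher level. Of all 16716 genes tested, 6.19% were called, 725 higher (4.34%) and 310 lower (1.85%), so 1 of 10 is near the background. At an unadjusted p under 0.05 there were 3 of the 10 genes, Bcl2l1, Pmaip1 and Bcl2a1d, against 24.8% of all genes. The same 3 had PS and CT values that did not overlap, with PS above CT in 2 and below in 1, against 30.6% of all genes tested, so this share too is near the background. DESeq2 called Bcl2l1 alone of the 10 and 11.9% of all genes, and limma-voom called none of the 10 and 5.96% of all genes. The median log2 fold change of the 10 was 0.05, and that of all genes tested was -0.00387. Scaling by library totals alone moved the median of all genes to -0.12 and gave 553 genes higher and 1532 lower; fold changes below are relative to the TMM scale.

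**Figure D1:**
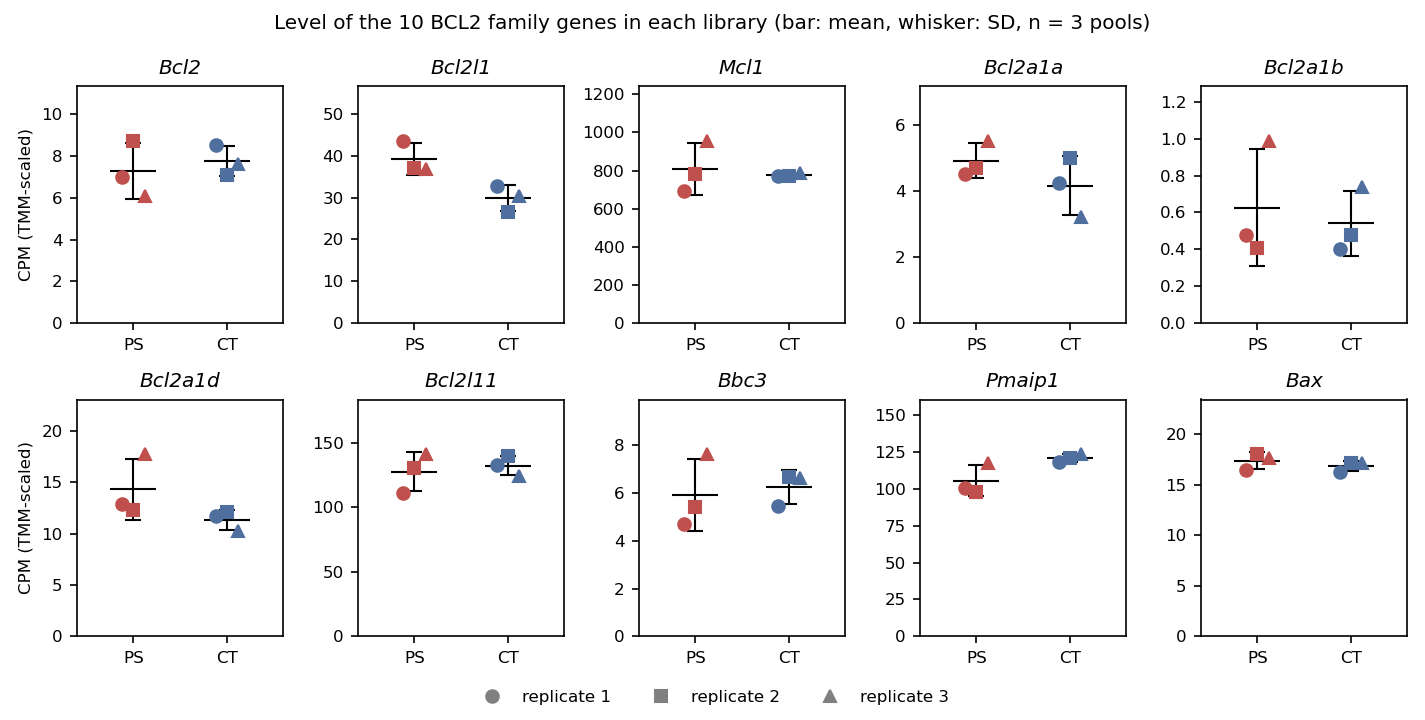
Level of each of the 10 genes in CPM, with 1 point per library, the PS libraries left of the CT libraries, the mean as a bar and the SD as a whisker (n = 3 pools per group). Bcl2l1 lies higher in every PS pool than in every CT pool, Pmaip1 lies lower with PS replicate 3 just under the CT values, and Mcl1 spreads from 691 to 957 CPM in PS but from 772 to 785 CPM in CT.

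Divided by exon length, the genes differed widely in level. Mcl1 was the highest, at 237 ± 39.6 CPM per kilobase of exon in PS and 227 ± 2.21 in CT (SD, n = 3 pools each). Pmaip1 followed at 38.5 ± 3.86 in PS and 44.2 ± 1.01 in CT. Bcl2 was near the bottom, at 0.795 ± 0.147 in PS and 0.847 ± 0.0776 in CT, and its range overlapped that of Bcl2a1b, the lowest, in both groups. Most neighbours in the order did not overlap; the exceptions besides Bcl2 and Bcl2a1b were Bcl2a1d and Bcl2l11 in PS, and Bcl2l1 and Bcl2a1a in CT. Within the 6 survival genes, Mcl1 made up 86.6% to 88.5% of the summed level per kilobase in PS and 89.2% to 90.5% in CT, and Bcl2l1 made up 2.54% to 4.08% in PS and 2.30% to 2.83% in CT. The level of the Bcl2a1 genes is a lower estimate, as described with their sequences.

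**Figure D2:**
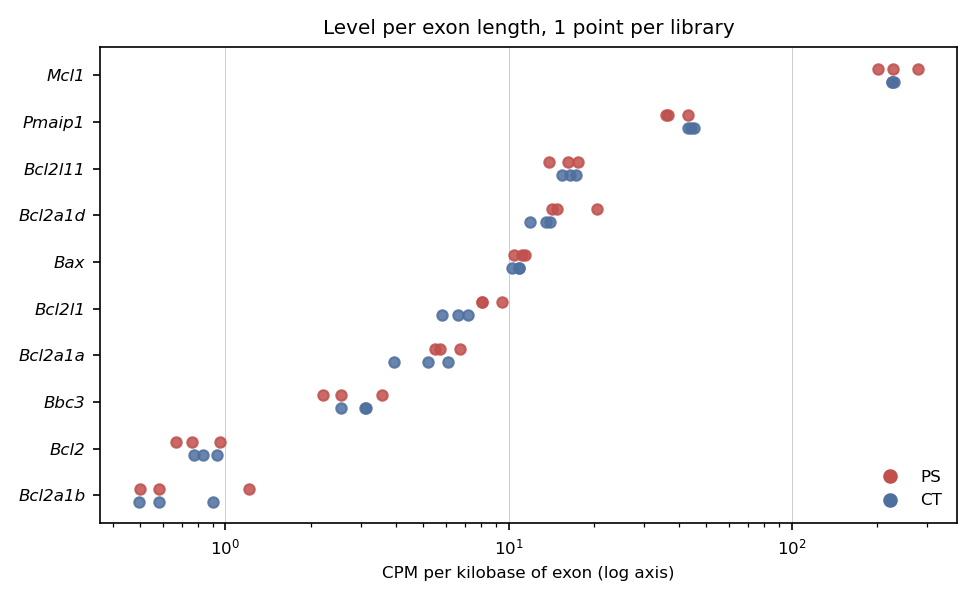
Level of each gene in CPM per kilobase of annotated exon on a log axis, with 1 point per library and the PS points above the CT points. Mcl1 stands above Pmaip1 in every library, the middle of the order holds Bcl2l11, Bcl2a1d, Bax, Bcl2l1 and Bcl2a1a, and Bcl2 and Bcl2a1b are the lowest.

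Mcl1 encodes a short-lived guard protein that many blood cells, mast cells included, need to survive. It had 691, 779.6 and 957 CPM in PS, against 772, 772 and 785 CPM in CT. The CT pools were almost identical, while the PS pools lay on both sides of them, with replicate 1 lowest and replicate 3 highest. The log2 fold change was 0.06 ± 0.11 (SE), with a 95% interval of -0.18 to 0.30 and an adjusted p of 0.778. The value ran from -0.08 without PS replicate 3 to 0.16 without PS replicate 1, and was -0.06 with scaling by library totals and 0.19 (adjusted p = 0.276) with the mean of the macrophage markers as a covariate; none of these was called.

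Bcl2l1 encodes BCL-XL, a survival protein that growth factor receptors acting through STAT proteins are known to induce. It had 43.6, 37.0 and 36.9 CPM in PS, against 32.9, 26.7 and 30.4 CPM in CT. Every PS pool was above every CT pool, and PS replicate 1 was the highest of all. Its mean was 39.2 ± 3.85 CPM in PS and 30.0 ± 3.12 CPM in CT (SD, n = 3 pools each), and the log2 fold change was 0.39 ± 0.10 (SE; 95% interval 0.17 to 0.60; adjusted p = 0.0496 by edgeR). Beside it, the summed mast cell markers were also higher in every PS pool than in every CT pool, and their part in the level of Bcl2l1 was not tested. The call ended when any 1 library other than PS replicate 3 was left out, with log2 fold changes of 0.30 to 0.46 and adjusted p from 0.0625 to 0.185. It held without PS replicate 3 (0.42, adjusted p = 0.0185) and ended with limma-voom (0.38, adjusted p = 0.051), with scaling by library totals (0.27, adjusted p = 0.0826) and with the mean of the macrophage markers as a covariate (0.33, adjusted p = 0.100).

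In the annotation Bcl2l1 lies on the minus strand at chr2:152780668-152831728 (GRCm38, GENCODE M21), and RefSeq lists 3 promoter windows for it, each from 250 bases before to 50 bases after a transcript start. The one motif found among the 4 searched was a match to the NF-kappaB motif in 1 of these windows. It is shown here because Bcl2l1 was the gene called, as the stretch chr2:152830920-152830967 (GRCm38.p6, minus strand), 5′ to 3′, with the match in capitals.
Bcl2l1 promoter: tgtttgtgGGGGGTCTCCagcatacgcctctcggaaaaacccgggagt
On both strands, this motif was in 8.46% of all 32851 promoter windows of 300 bases and in 2 of the 14 windows of the 9 family genes that had one. The STAT motif TTCNNNGAA was in 8.30% of all windows and in 0 of these 14. A match of letters in a window is a description and not a binding site.

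Many genes had a pattern over the 6 libraries like that of Bcl2l1. Of 9493 protein-coding genes with a mean of at least 5 CPM outside the family, 525 had a Pearson correlation with it above 0.9 in log2 CPM over the 6 libraries. The 3 most alike were Chd4, a chromatin remodeller (r = 0.993), Rbms2, an RNA-binding protein (0.992), and Plcd3, a phospholipase C (0.991). None of these 3 was called, and Chd4 had 552, 537 and 534 CPM in PS and 519.6, 490.1 and 508 CPM in CT. These points share their libraries, and the correlations describe 6 values.

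Bcl2, which gives the family its name, was expressed at a low level. It had 7.001, 8.74 and 6.10 CPM in PS, against 8.52, 7.11 and 7.64 CPM in CT, and the groups overlapped. The log2 fold change was -0.09 ± 0.14 (95% interval -0.41 to 0.22, adjusted p = 0.725), and it ran from -0.25 without PS replicate 2 to 0.02 without PS replicate 3; with the macrophage covariate it was -0.30 (adjusted p = 0.169). Bcl2l1 had 4.23 to 6.23 counts for each count of Bcl2 in PS and 3.75 to 3.97 in CT.

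Mouse A1 is encoded by near-identical gene copies on chromosome 9, which bears on what the counts can tell. Bcl2a1a is at chr9:88956900-88962419 on the plus strand, Bcl2a1b at chr9:89199209-89207827 on the plus strand and Bcl2a1d at chr9:88723285-88731914 on the minus strand (GRCm38, GENCODE M21). Each has a coding sequence of 519 bases, and 12 positions differ among the 3 copies. The stretch below holds coding bases 1 to 120 of each, where 7 of those positions lie. It is shown because, within the coding sequence, reads can tell the copies apart only where they cover such a position. Coding bases found in 1 copy alone numbered 6 in Bcl2a1a, 5 in Bcl2a1b and 1 in Bcl2a1d. Transcript bases outside the coding sequence were not compared position by position. The stretch lies at chr9:88957051-88957170 in Bcl2a1a, chr9:89199360-89199479 in Bcl2a1b and, on the minus strand, chr9:88731600-88731719 in Bcl2a1d. Capitals mark the positions at which the 3 copies are not all the same.
Bcl2a1a: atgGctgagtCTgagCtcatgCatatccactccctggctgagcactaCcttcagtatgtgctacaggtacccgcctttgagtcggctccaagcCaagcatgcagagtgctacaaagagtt
Bcl2a1b: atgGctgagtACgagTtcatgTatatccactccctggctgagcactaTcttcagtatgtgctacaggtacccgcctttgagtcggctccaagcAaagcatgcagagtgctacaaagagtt
Bcl2a1d: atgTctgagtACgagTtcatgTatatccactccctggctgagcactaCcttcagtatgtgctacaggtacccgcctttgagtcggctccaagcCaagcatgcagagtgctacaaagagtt
Bcl2a1b and Bcl2a1d differ at 6 coding positions (98.8% identity), Bcl2a1a and Bcl2a1d at 7 (98.7%), and Bcl2a1a and Bcl2a1b at 11 (97.9%). After these variable bases, coding bases 95 to 311 are the same in all 3 copies, a run of 217 bases. Of the transcript stretches of 75 bases, 55.2% of those of Bcl2a1a, 68.4% of Bcl2a1b and 67.6% of Bcl2a1d also occur in another annotated gene. The tables list reads without a unique alignment in a row of their own, so each copy is undercounted, and the split between copies is uncertain.

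The rows of the 3 copies differed widely in level. Bcl2a1d, the highest, had 12.8, 12.3 and 17.7 CPM in PS, against 11.7, 12.1 and 10.2 CPM in CT. Its PS and CT values did not overlap, by a narrow margin in PS replicate 2. Its log2 fold change of 0.34 ± 0.14 (95% interval 0.02 to 0.65) was not called (adjusted p = 0.180 by edgeR), and was 0.15 without PS replicate 3. Bcl2a1a had 4.52, 4.69 and 5.52 CPM in PS, against 4.25, 5.001 and 3.22 CPM in CT (0.24 ± 0.17, adjusted p = 0.404; 0.32 with the macrophage covariate). Bcl2a1b had only 24, 22 and 55 counts in PS, against 31, 28 and 42 counts in CT, and its groups overlapped (0.23 ± 0.39, adjusted p = 0.771). The value of Bcl2a1b ran from -0.28 without PS replicate 3 to 0.51 without CT replicate 3, and was 0.68 (adjusted p = 0.243) with the macrophage covariate. In the annotation 49.1% of the exon length of Bcl2a1b is overlapped by another gene on its own strand. The share of the 3 rows' counts that went to Bcl2a1d was 70.7% to 73.1% in PS and 68.8% to 72.1% in CT.

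Their sum does not depend on how reads were split among the 3 rows. It was 17.8, 17.4 and 24.2 CPM in PS, against 16.3, 17.6 and 14.2 CPM in CT. PS replicates 1 and 2 were close to CT replicate 2, and PS replicate 3 was above every other library. The log2 fold change of the sum was 0.31 ± 0.13 (adjusted p = 0.199 by edgeR), and 0.13 (adjusted p = 0.394) without PS replicate 3, the library with the highest summed macrophage markers. With the mean of the macrophage markers as a covariate the sum was called higher (0.46, adjusted p = 0.0401), as was Bcl2a1d (0.50, adjusted p = 0.0304); 4.67% of all genes were called in that fit.

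The BH3-only genes fell into a pair of well expressed genes, Bcl2l11 and Pmaip1, and a low one, Bbc3. Bcl2l11, which encodes BIM, had 111, 130.2 and 141 CPM in PS, against 133, 139 and 124 CPM in CT. The PS pools spanned the whole CT range, and the log2 fold change was -0.05 ± 0.09 (95% interval -0.25 to 0.15, adjusted p = 0.767). Bbc3, which encodes PUMA, had 4.70, 5.42 and 7.61 CPM in PS, against 5.43, 6.65 and 6.62 CPM in CT. Its groups overlapped, with the widest interval of the BH3-only genes (-0.07 ± 0.18, 95% interval -0.47 to 0.33, adjusted p = 0.838). The sign of both turned without PS replicate 1 (0.03 and 0.06) and with the macrophage covariate (0.01 and 0.16); without PS replicate 3 they were -0.13 and -0.30 (adjusted p = 0.29995 and 0.165). For each count of Bbc3 there were 18.5 to 24.0 counts of Bcl2l11 in PS and 18.8 to 24.5 in CT.

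BIM and PUMA are known targets of FOXO transcription factors, and both genes had a promoter window with the FOXO motif TGTTTAC, read on either strand. These were the only FOXO matches in the 14 windows, against 3.65% of all windows. The Bcl2l11 stretch is chr2:128125788-128125847 (GRCm38.p6, plus strand), where the match is on the opposite strand, and the Bbc3 stretch is chr7:16310064-16310130 (GRCm38.p6, plus strand). Both are given 5′ to 3′ on the plus strand with the match in capitals, to show what is shared by a pair of genes neither of which was called.
Bcl2l11 promoter: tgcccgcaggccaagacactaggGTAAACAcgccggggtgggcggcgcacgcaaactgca
Bbc3 promoter: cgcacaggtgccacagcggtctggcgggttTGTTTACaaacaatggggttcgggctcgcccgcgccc
Counted from the listed transcript start, the matches begin at -227 for Bcl2l11 and at -167 for Bbc3, and neither overlaps another motif searched.

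Pmaip1 encodes NOXA, which binds MCL1 above all and is known to send it to degradation. It had 100.4, 98.0 and 117.4 CPM in PS, against 117.8, 121 and 123 CPM in CT. Every PS pool was below every CT pool, although PS replicate 3 was within 1 CPM of CT replicate 1. The log2 fold change was -0.20 ± 0.07 (95% interval -0.36 to -0.03, adjusted p = 0.143 by edgeR), so the gene was not called. It was called lower without PS replicate 3 (-0.29, adjusted p = 0.00831), a fit in which 15.4% of all genes were called, and with scaling by library totals (-0.31, adjusted p = 0.0368), where 12.5% were. With the macrophage covariate the log2 fold change was -0.10 (adjusted p = 0.381).

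Bax was the steadiest of the genes in PS. It had 16.4, 18.0 and 17.6 CPM in PS, against 16.3, 17.1 and 17.2 CPM in CT, and the groups overlapped. The log2 fold change was 0.04 ± 0.07, with a 95% interval of -0.11 to 0.20 (adjusted p = 0.744), and it was -0.07 with scaling by library totals and 0.06 with the macrophage covariate. Of its transcript stretches of 75 bases, 6.84% occur in another annotated gene, and 12.2% of its exon length is overlapped by another gene on its own strand. BAX is a known target of p53, and its promoter window held 1 match to the p53 decamer motif. This motif was in 1 of the 14 windows and in 8.36% of all windows. A single match of letters to the decamer is a description and not a p53 binding site. The match is in capitals in the stretch chr7:45467060-45467129 (GRCm38.p6, minus strand), shown as the only match to this motif among these windows.
Bax promoter: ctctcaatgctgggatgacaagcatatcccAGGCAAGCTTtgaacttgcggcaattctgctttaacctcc

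**Figure D3:**
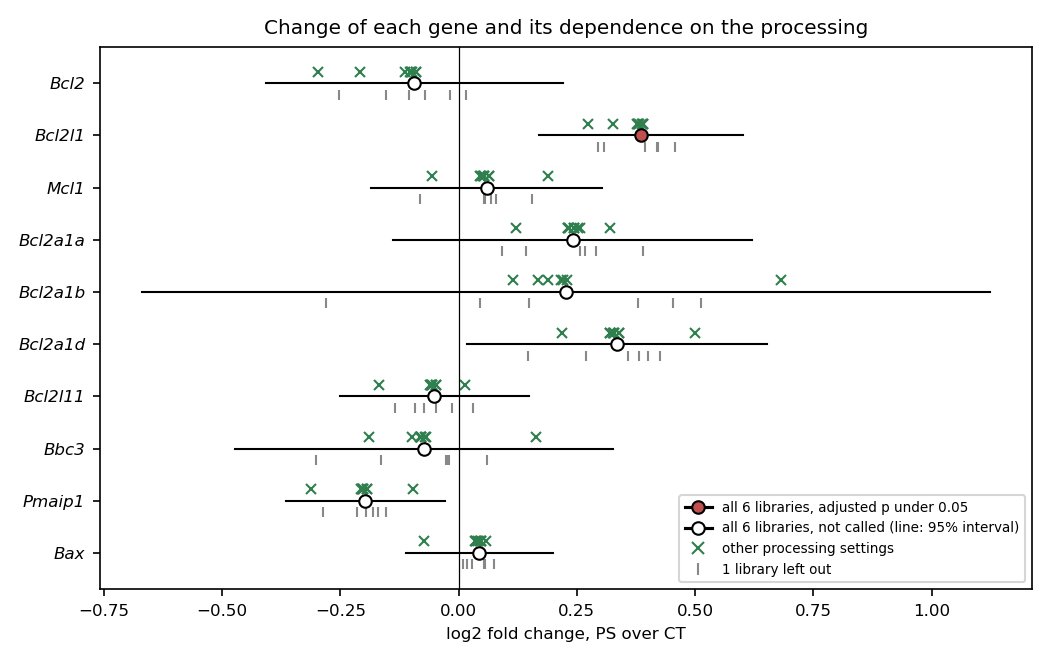
Log2 fold change of PS over CT for the 10 genes: circles give the value with all 6 libraries and its 95% interval, crosses the other processing settings, and ticks the fits without 1 library. The intervals of Bcl2l1 (0.17 to 0.60) and of Bcl2a1d (0.02 to 0.65, not called) lie above 0 and that of Pmaip1 (-0.36 to -0.03, not called) below it. The values of Mcl1, Bcl2l11, Bbc3, Bax, Bcl2 and Bcl2a1b cross 0 under at least 1 setting.

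PS replicate 3 stood at an end of the range for most of these genes. It held the highest level of 6 of the 10 genes, Mcl1, Bcl2a1a, Bcl2a1b, Bcl2a1d, Bcl2l11 and Bbc3, and the lowest of Bcl2. PS replicate 1 held the lowest level of 3 genes, Mcl1, Bcl2l11 and Bbc3. Relative to the mean of the CT libraries, the summed macrophage markers were at 0.753, 0.701 and 1.08 in PS replicates 1, 2 and 3, Mcl1 was at 0.890, 1.00 and 1.23, and Pmaip1 was at 0.832, 0.812 and 0.973. Bcl2l1 ran otherwise, at 1.46, 1.23 and 1.23. Macrophages also express genes of this family, and their part in these levels was not tested beyond the fits with their mean as a covariate. The summed markers were lower in PS replicates 1 and 2 than in every CT library, so these fits do not fully separate them from the group.

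**Figure D4:**
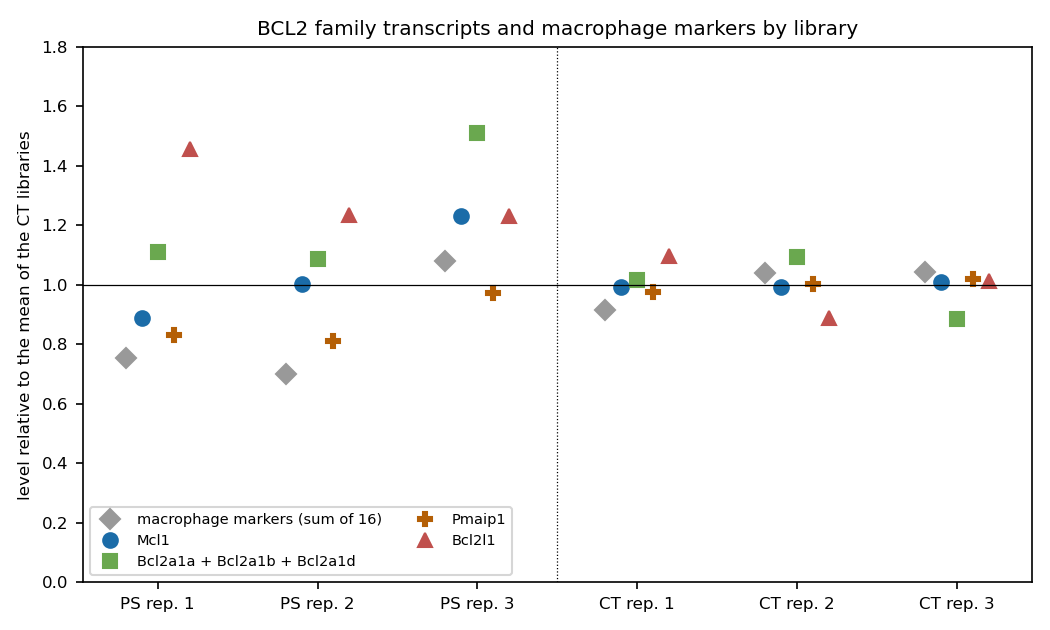
Level of Mcl1, the sum of 3 Bcl2a1 rows, Pmaip1, Bcl2l1 and the sum of 16 macrophage markers in each library, divided by the mean of the CT libraries, with the PS libraries on the left. PS replicate 3 has the highest relative level of Mcl1 (1.23) and of the Bcl2a1 sum (1.51), PS replicates 1 and 2 have the lowest macrophage markers and Pmaip1, and Bcl2l1 is above 1.2 in all PS libraries.

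Among 17 other genes of the family, 5 were too low to test (Bcl2a1c, Bcl2l10, Bok, Hrk and Bcl2l15, with at most 13 counts in a library). Of the rest, 1 fell, none rose and 11 were not called, while 1.85% of all genes tested fell and 4.34% rose. The family gene that fell was Bcl2l14, which encodes BCL-G. It had only 0.238, 0.1299 and 0.252 CPM in PS, against 1.35, 0.970 and 0.370 CPM in CT, uneven within CT (log2 fold change -2.13 ± 0.50, adjusted p = 0.0429). The call ended in 4 of the 6 fits without 1 library (adjusted p up to 0.156), with limma-voom (0.0837) and with the macrophage covariate (0.0528). It also ended with the replicate number as a block. On the opposite strand another gene overlaps 14.1% of its exon length, and the strand setting of the counts is not stated. T cell transcripts were uneven in the same libraries: Cd3e, chosen after its values were seen, had 0 counts in each PS library and 74, 8 and 5 counts in CT. Of the 10 innate lymphoid and T cell markers, 8 were detected in every library, Ncr1 was at 0 in all, and 6 were tested. Il7r was called higher (log2 fold change 1.296, adjusted p = 0.00196), the other 5 were not called (Rora at 0.02, Gata3 at -0.60, Thy1 at -1.76, Cd3g at -1.80 and Trdc at -2.81), and the median was -1.18. Their part in the value of Bcl2l14 was not tested.

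The 11 genes not called included survival genes and an effector. Bcl2l2, which encodes the survival protein BCL-W, had 24.4, 24.3 and 24.1 CPM in PS, against 22.0, 18.8 and 19.6 CPM in CT (0.27 ± 0.07, adjusted p = 0.0643 by edgeR; 0.0260 by DESeq2). Its PS pools were all above its CT pools, but 13.3% of its exon length is overlapped by another gene on its strand. Bnip3, a mitochondrial protein of hypoxic cells, had 20.96, 18.1 and 25.5 CPM in PS, against 24.3, 31.3 and 28.0 CPM in CT (-0.37 ± 0.13, adjusted p = 0.125). Bnip3 was called lower without PS replicate 3 (-0.51, adjusted p = 0.0138 by edgeR), where 15.4% of all genes were called. It was also called lower with all genes unfiltered, where 6.60% were. Bak1, chosen after its values were seen because BAK is the effector beside BAX, had 75.2 to 77.1 CPM in PS and 70.7 to 75.02 CPM in CT (adjusted p = 0.466).

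Downstream of the mitochondrion, 0 of 20 genes of the apoptosome, the caspases and their inhibitors were called by edgeR or limma-voom. An unadjusted p under 0.05 by edgeR was found for 7, and DESeq2 called 1, Birc3. Over all genes, edgeR called 6.19%, limma-voom 5.96% and DESeq2 11.9%, and 24.8% had an unadjusted p under 0.05. Birc3, a ubiquitin ligase of the inhibitor of apoptosis family, had 228, 231 and 245 CPM in PS, against 203, 199 and 213 CPM in CT (0.20 ± 0.06, adjusted p = 0.0784 by edgeR). Xiap, the caspase inhibitor of that family, had 144, 145 and 137 CPM in PS, against 132, 127 and 123 CPM in CT (adjusted p = 0.128). Htra2, a mitochondrial protease that is released with cytochrome c, had 24.4, 24.0 and 24.9 CPM in PS, against 26.1, 28.7 and 29.6 CPM in CT (adjusted p = 0.102). These 3 were named for their small p, and in the whole list 7 of 20 genes had groups that did not overlap, near the 30.6% of all genes tested. The median log2 fold change of this list was -0.00833.

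In the p53 pathway, which is known to induce Bbc3, Pmaip1 and Bax, 1 of 19 genes tested rose, 2 fell and 16 were not called. Of 20 listed, Trp73 was too low to test, and the list median was -0.02. Among all genes tested, 4.34% rose and 1.85% fell. An unadjusted p under 0.05 by edgeR was found for 8 of the 19, against 24.8% of all genes. Groups did not overlap for 9, with PS above CT in 4 and below in 5, against 30.6% of all genes tested. Trp53, which encodes p53, fell to 62.0, 60.1 and 60.8 CPM in PS, against 69.6, 81.9 and 72.3 CPM in CT (log2 fold change -0.29 ± 0.07, adjusted p = 0.0431). Aen, an exonuclease gene that p53 is known to induce, fell to 15.9, 15.2 and 15.0 CPM in PS, against 17.6, 20.1 and 19.2 CPM in CT (-0.30 ± 0.07, adjusted p = 0.0484). Gadd45a, a growth arrest gene of the DNA damage response, rose to 384, 365 and 296 CPM in PS, against 230.1, 178 and 245 CPM in CT (0.68 ± 0.13, adjusted p = 0.0237). Sesn1, chosen after its values were seen, had 38.5, 30.2 and 43.9 CPM in PS, against 48.2, 58.2 and 54.3 CPM in CT. Its log2 fold change of -0.51 ± 0.13 was just short of a call (adjusted p = 0.0502 by edgeR). The calls of Trp53 and Aen ended in 5 of the 6 fits without 1 library (adjusted p up to 0.14995 and 0.183). Both also ended with the macrophage covariate (0.0848 and 0.0945) and with the replicate number as a block. The call of Aen ended with limma-voom too (0.0548), and that of Gadd45a ended in 4 of the 6 fits without 1 library (adjusted p up to 0.0936). Sesn1 was called lower by DESeq2 and limma-voom, with library totals, with the other size factors and with the other filters. It was not called with the block or the covariate, and of the fits without 1 library only that without PS replicate 3 called it.

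A list of 16 tested genes act on the BH3-only proteins, the FOXO factors, kinases and binding partners among them and Foxo6 left out for 0 counts. Of these, 0 were called by edgeR or limma-voom, 4 had an unadjusted p under 0.05, and DESeq2 called 2, Jun and Ywhaz. Shares of all genes were 6.19% called by edgeR, 5.96% by limma-voom, 11.9% by DESeq2, and 24.8% at an unadjusted p under 0.05 by edgeR. Foxo3 had 69.7, 70.6 and 68.0 CPM in PS, against 76.1, 77.9 and 83.4 CPM in CT (-0.19 ± 0.06, adjusted p = 0.0776 by edgeR). Ywhaz, a 14-3-3 protein gene, had 651, 741 and 653 CPM in PS, against 601, 522 and 572 CPM in CT (0.27 ± 0.08, adjusted p = 0.0768). Jun, whose kinase phosphorylates BIM, had 965, 1034 and 725 CPM in PS, against 616, 601 and 735 CPM in CT, and its groups overlapped through PS replicate 3 (adjusted p = 0.0668). The list median was -0.06.

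Of 12 genes that control the stability of the MCL1 protein or bind it, 2 rose, none fell and 10 were not called. The median was 0.06, and of all genes tested 4.34% rose and 1.85% fell. Ier3, an immediate early gene, rose to 303, 302 and 307 CPM in PS, against 233, 200.1 and 243 CPM in CT (0.43 ± 0.08, adjusted p = 0.0186). The PS pools of Ier3 lay within a narrow band above every CT pool, and its call ended without PS replicate 1 (adjusted p = 0.051) or PS replicate 2 (0.0672). Tpt1, which encodes the translationally controlled tumour protein that binds MCL1, rose to 1873, 2289 and 2021 CPM in PS, against 1569, 1497 and 1652 CPM in CT (0.39 ± 0.09, adjusted p = 0.0347). The value of Tpt1 is uncertain because 17.5% of its transcript stretches of 75 bases occur in pseudogenes. Its call ended in 4 of the 6 fits without 1 library (adjusted p up to 0.129), with the macrophage covariate (0.0746) and with the replicate number as a block. Usp9x, a deubiquitinase of MCL1, had 386, 392 and 366 CPM in PS, against 361, 320.4 and 339 CPM in CT (adjusted p = 0.160).

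**Figure D5:**
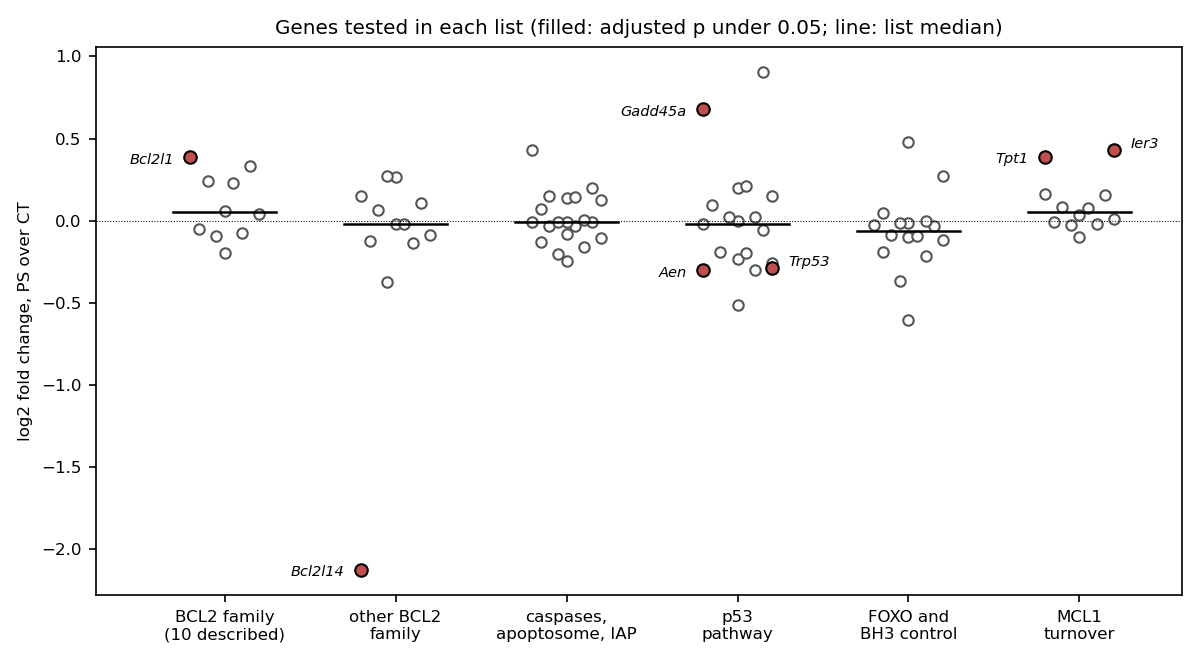
Log2 fold change of PS over CT for each gene tested in the 10-gene family list and 5 related lists, with 1 point per gene, filled where the adjusted p was under 0.05, and the list median as a line. The medians lie between -0.06 and 0.06, and the called genes are Bcl2l1, Bcl2l14, Gadd45a, Trp53, Aen, Ier3 and Tpt1.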

How the data were processed

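The authors deposited 1 table of raw read counts per gene symbol for each library, not normalized. Per the submitters' processing notes the tools were FastQC, STAR 2.4 and HTSeq 0.9.1; both GRCm39 and mm10 appear there as builds, without saying what each was used for. Annotation release and strand setting: not given in the sources used here. The 5 rows that name no gene were kept out (79.7% to 81.4% of the listed reads were assigned to genes, 51710555 to 74735139 per library). Genes were filtered with filterByExpr (minimum count 10), scaled with TMM and tested with edgeR 4.0.16's quasi-likelihood test (R 4.3.3) of PS against CT, no covariate, with Benjamini-Hochberg adjustment over all 16716 genes tested. SE is the log2 fold change divided by the square root of F. Log2 CPM used a prior count of 2. Symbols were matched to GENCODE M21 (GRCm38) for exon length and overlap (90.6% matched); promoters are RefSeq's (GRCm38.p6), read by symbol.

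The genes and lists were chosen with earlier results of these data known. Beyond the 10 genes, those named were every called gene of a list, filled up to 3 by smallest p. Bak1, Sesn1 and the marker genes are exceptions. Tried as alternatives were size factors by RLE or by upper quartile, library totals, all genes unfiltered, only genes with 10 counts in 3 libraries and a mean of 1 CPM (the stricter filter), DESeq2 1.42.0, limma-voom (limma 3.58.1), the replicate number as a block, the mean log2 CPM of the macrophage markers as a covariate, and each library left out. The test was tried on simulated data.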

Additional observations from a re-analysis of the deposited data

How the results depend on the processing

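The 10 family genes kept their side of the threshold in 137 of 148 alternative values; 3 became calls, 8 lost one (all Bcl2l1), and 9 values changed sign with no call under either setting. The number of the 10 called was 0 with limma-voom and 0 to 2 without 1 library. It was 1 with library totals (Pmaip1) and with the macrophage covariate (Bcl2a1d), where the called gene was a different one. The Bcl2a1 sum was 0.46 with that covariate, called, and 0.13 to 0.39 without 1 library, not called. Over all genes, 1035 were called, against 2085 with library totals, 1933 with no filter, 1989 with DESeq2, 622 with the replicate block, and 196 (without PS replicate 2) to 2647 (without PS replicate 3). Other family genes called numbered 1, against 2 with no filter, 0 with the stricter filter, limma-voom, the block or the covariate, and 0 to 3 without 1 library. Caspase, apoptosome and inhibitor genes numbered 0, against 1 with library totals or DESeq2 and 0 to 1 without 1 library. For the p53 pathway 3 became 6 with library totals, 1 with the block or the covariate, and 0 to 6 without 1 library. For the FOXO and BH3 control genes 0 became 3 with library totals, 2 with no filter or DESeq2, and 0 to 4 without 1 library. For the MCL1 turnover genes 2 became 1 with the block or the covariate, and 0 to 3 without 1 library. The cause of these shifts was not tested. The labels do not say whether same-numbered PS and CT libraries belong together. Their deviations from the group means correlated at 0.10, -0.02 and 0.07 for replicates 1, 2 and 3, and at -0.21 to 0.14 for unlike numbers. With 3 libraries per group these values cannot decide whether the numbers mark pairs. With the block Bcl2l1 was at 0.39 (adjusted p = 0.0331 by edgeR). Bcl2a1b and Bcl2l14 had no value under the stricter filter and no adjusted p in DESeq2. With 3 pools per group and 22 to 55 counts, Bcl2a1b allowed changes of 0.63-fold to 2.18-fold within its 95% interval.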
